A study of Homo sapiens with 18 samples.

Results

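The highest of the doses given to A375 cells was set against untreated cells of the same time point. A375 is an established human melanoma line with an activating BRAF mutation, and the drug IMD-0354 is known for blocking IKKβ, the kinase that frees NF-κB from its inhibitor. The treated cells received 1.25 µM IMD-0354 for 24 h and the untreated cells received none, with 3 libraries in each group, which make 6 of the 18 libraries of the study. The other 12 libraries, at 0.32 and 0.63 µM for 24 h, at 0.63 µM for 48 h and untreated at 48 h, entered the fit to estimate the spread between libraries. No vehicle is named for the untreated cells, all libraries came from 1 cell line, and nothing in the labels says that replicates were separate cultures, so the p-values measure the spread between these libraries, which may be technical. RNA was sequenced from its 3' end (QuantSeq FWD), and the deposited values are TPM, a measure of transcript abundance relative to all transcripts of a library. Genes that reached 1 TPM in 3 or more libraries were included, which left 14936 of the 60504 genes in the table.

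As background, NF-κB drives genes of inflammation and survival, and melanoma cells with mutant BRAF depend on ERK signalling for the cyclins that start the cell cycle. Cells short of amino acids, or with misfolded proteins, phosphorylate the initiation factor eIF2, which slows translation and favours synthesis of the transcription factor ATF4, whose target genes carry CARE elements. Cells that stop dividing silence S phase and mitotic genes through promoter elements read by E2F and by the DREAM and MuvB complexes, the CHR element among them.

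Of the 23 listed genes of the melanocyte lineage 11 passed the filter on low values. SOX10, which specifies the melanocyte lineage, had 27.1, 31.5 and 25.2 TPM in treated cells, against 17.1, 8.29 and 34.7 TPM in untreated cells, and MLPH, which tethers pigment granules to the cytoskeleton, averaged 15.7 TPM in treated cells and 8.21 TPM in untreated cells. The pigment genes TYR, TYRP1 and SLC45A2 and the adhesion gene CDH1 were at 0 in every library at 24 h. Of the 13 leukocyte and endothelial markers 1, the lysosomal gene CD68, passed the filter on low values, with PTPRC, CD3E, CD14, VWF and CDH5 at 0. Of the 11 keratinocyte markers KRT10 and KRT15 passed it and rose, and the list summed to 78.7 to 110.4 TPM in treated libraries, against 39.6 to 47.2 TPM in untreated libraries. KRT10 had 72.7, 84.9 and 103 TPM in treated cells, against 39.1, 43.6 and 44.9 TPM in untreated cells, and rose by 1.00 (SE 0.17, adjusted p = 0.00158). The adjusted p of KRT15 was 0.0916, 0.143, 0.154 and 0.0657 without treated replicate 1, treated replicate 3, untreated replicate 1 and untreated replicate 2. The defining markers KRT1, TP63, DSG1 and DSG3 were at 0. Of 10 fibroblast markers POSTN and PDGFRB passed the filter, with COL3A1, DCN, FAP and THY1 at 0. POSTN, a matrix protein, had 0, 0 and 0 TPM in treated cells, against 2.24, 5 and 2.51 TPM in untreated cells (adjusted p = 0.00295).

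Untreated replicate 2 stood somewhat apart. Pearson correlations of log2(TPM + 1) across the tested genes ran from 0.931 to 0.937 between treated libraries, from 0.897 to 0.942 between untreated libraries, and from 0.866 to 0.917 between the groups. Replicate 2 was the lowest untreated library for 364 of the 738 genes called higher and the highest for 549 of the 950 genes called lower. Between 14950 and 15192 genes were above 0 in treated libraries, against 15198 to 16408 in untreated libraries.

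Treatment with 1.25 µM changed 1688 of the 14936 genes, or 11.3%, of which 738 rose (4.94%) and 950 fell (6.36%). A gene was called where its limma test on log2(TPM + 1) had a Benjamini-Hochberg adjusted p under 0.05. All changes given here are differences between group means on that scale, treated minus untreated, which understates the change of genes with few TPM. The median difference over all genes was -0.01. Of the called genes 492 rose and 613 fell by at least 1, which is close to a 2-fold change for abundant genes, 91 rose and 91 fell by at least 2, and 16 rose and 18 fell by at least 3. The 3 treated libraries lay wholly above or below the 3 untreated ones for 3896 genes, or 26.1%. Of the 1688 called genes 1651 were among these, so a lack of overlap adds little to a call. It was also required of the largest rises and falls named below.

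By TPM as deposited, the share of called genes differed between classes. Of the 136 genes with a mean over 1000 TPM, 22.8% rose and 8.82% fell, whereas of the 433 genes between 200 and 1000 TPM 9.93% rose and 21.2% fell. Of the 4117 genes under 2 TPM 1.7% rose and 1.41% fell. Without untreated replicate 2 the calls were 552 higher and 741 lower. Without treated replicate 3 they were 451 higher and 509 lower, with 791 of the calls lost, and 726 calls (312 higher and 414 lower) passed with each of the 6 libraries left out in turn. A fit to the 6 compared libraries alone called 88 higher and 83 lower, and 60 of the 253 called genes among those named by rule passed in it. In that fit 7 of the ATF4 targets, 4 of the spindle genes, 4 of the snoRNA hosts and none of the ribosomal proteins were called, while the autophagy list had 3 higher and 1 lower as in the fit to all libraries.

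**Figure D1:**
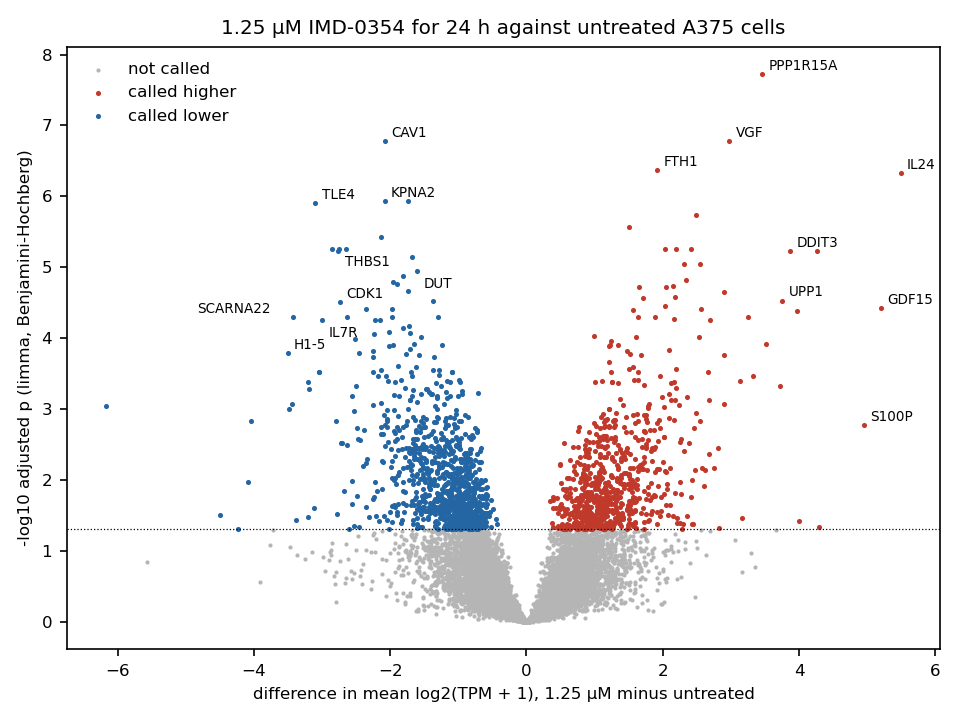
Each point is 1 of the genes tested, by its difference in mean log2(TPM + 1) between 1.25 µM and untreated cells (x axis) and the -log10 of its adjusted p (y axis), with 3 libraries per group. The dotted line marks an adjusted p of 0.05, red points are the 738 genes called higher and blue points the 950 called lower, and the labels name genes with large or significant changes.

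The largest rises among genes with a mean of at least 5 TPM in either group included secreted proteins, an epidermal gene and non-coding RNAs. UPP1, uridine phosphorylase, which breaks uridine down to uracil and a sugar phosphate, had 203, 232 and 150.3 TPM in treated cells, against 30.2, 5.38 and 13.7 TPM in untreated cells, and rose by 3.75 (SE 0.41, adjusted p = 2.96e-05). The lowest treated library was well above the highest untreated one. VGF, the precursor of secreted neuropeptides, had 138, 168 and 121 TPM in treated cells, against 22.2, 14 and 15.9 TPM in untreated cells, and rose by 2.98 (SE 0.19, adjusted p = 1.66e-07). BEX2, a small adaptor protein gene on the X chromosome, had 42.5, 36.8 and 41.5 TPM in treated cells, against 1.02, 5.16 and 4.55 TPM in untreated cells. It rose by 3.33 (SE 0.47, adjusted p = 3.47e-04), and its treated libraries lay within a narrow range. GTPBP2, a GTPase that helps to rescue stalled ribosomes, had 29.2, 25 and 17.5 TPM in treated cells, against 0.77, 0.29 and 3.21 TPM in untreated cells (adjusted p = 1.22e-04).

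Several of these genes were listed at 0 in all untreated libraries, so that no fold change is given. LINC00520, a long non-coding RNA, had 14.9, 16.1 and 13.2 TPM in treated cells, against 0, 0 and 0 TPM in untreated cells (adjusted p = 4.20e-05). SPRR2D, a cornified envelope protein from a family of near-identical copies, had 22.4, 21.4 and 12.4 TPM in treated cells, against 0, 0 and 0 TPM in untreated cells (adjusted p = 5.99e-06). LCN2, lipocalin 2, a secreted protein that binds iron-carrying siderophores, had 4.36, 18.3 and 21.5 TPM in treated cells, against 0, 0 and 0 TPM in untreated cells (adjusted p = 4.73e-04). OSCAR, a collagen receptor known from osteoclasts, was at 0 in 2 of the untreated libraries and had 9.77, 8.79 and 8.62 TPM in treated cells, against 0, 0.19 and 0 TPM in untreated cells (adjusted p = 4.97e-05). IL24, a secreted cytokine, had 256, 279 and 399 TPM in treated cells, against 8.73, 3.08 and 6.94 TPM in untreated cells, and rose by 5.49 (SE 0.39, adjusted p = 4.71e-07). None of the untreated libraries of these 5 genes reached the lowest treated one, as the rule for naming them required.

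**Figure D2:**
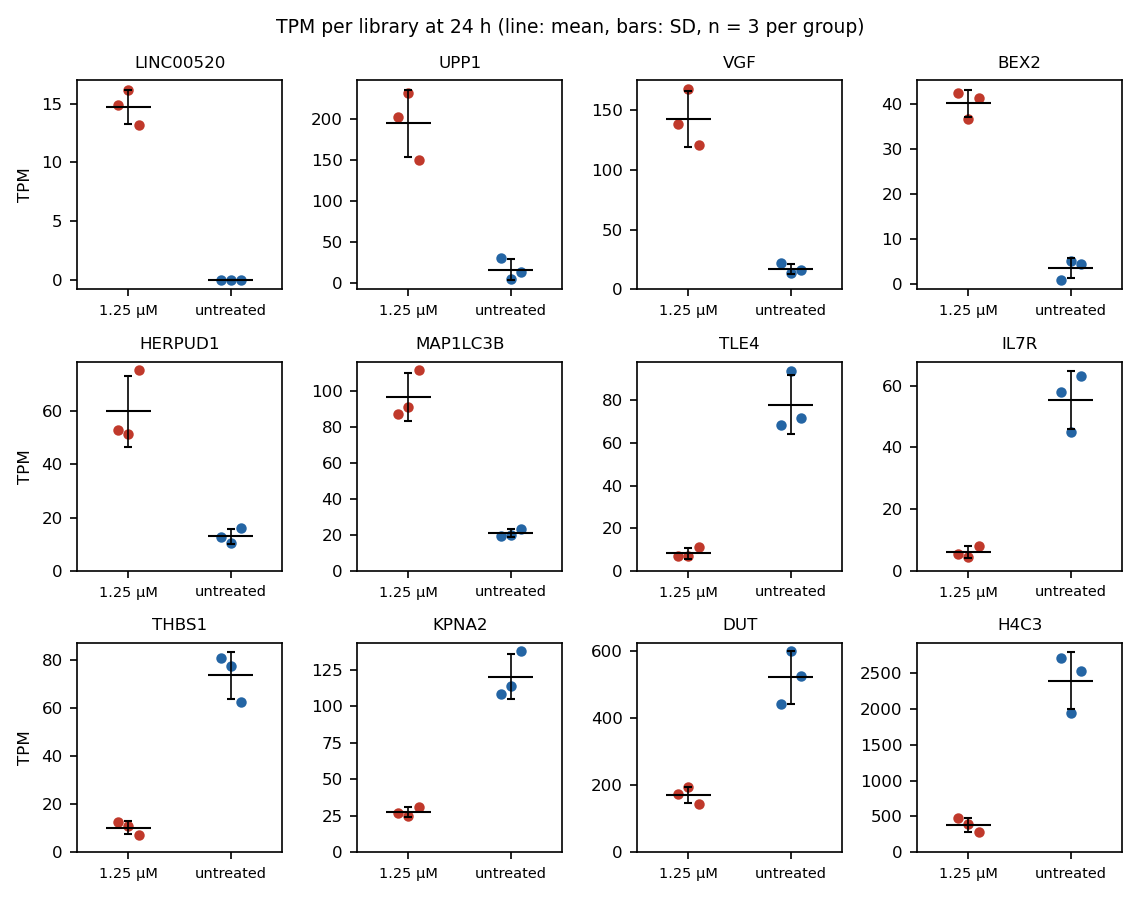
TPM in each library for 12 genes named in the text, with 1.25 µM (red) on the left and untreated cells (blue) on the right, the mean as a line and the SD as bars (n = 3 per group). No treated library overlaps an untreated one in any panel, which was a condition for naming the largest rises and falls. LINC00520 is at 0 in all 3 untreated libraries.

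Part of the target genes of ATF4 rose. Of 38 measured ATF4 targets 16 rose and none fell, beside 4.94% and 6.36% over all genes, with a median difference of 0.74. With 1 library left out the count of higher targets ran from 11 to 17. ATF4 mRNA itself, which is controlled mainly in translation, had 289.7, 272 and 265 TPM in treated cells, against 217, 329.5 and 203 TPM in untreated cells, a difference of 0.17 (SE 0.17, adjusted p = 0.556) that did not pass. Of 17 measured genes of eIF2 and of the kinases and phosphatases that act on it 2 rose and 2 fell (median 0.17). Leaving out 1 library, the higher count ran from 1 to 3, with 1 without treated replicate 1, treated replicate 2, treated replicate 3 or untreated replicate 1, and the lower count from 1 to 2, with 1 without treated replicate 3 or untreated replicate 2. EIF2AK1, the kinase that responds to haem shortage and mitochondrial stress, fell to 36, 21 and 16.9 TPM in treated cells, against 43.8, 47.1 and 50.3 TPM in untreated cells, by 0.97 (SE 0.21, adjusted p = 0.00772). PPP1R15A, the subunit that directs a phosphatase to eIF2, had 219, 219 and 238 TPM in treated cells, against 23, 17.4 and 18.5 TPM in untreated cells, and rose by 3.46 (SE 0.18, adjusted p = 1.90e-08). The other calls were EIF2AK3, the kinase that senses misfolded proteins in the endoplasmic reticulum, which was higher, and EIF2AK2, the kinase that senses double-stranded RNA, which was lower. The adjusted p of EIF2AK3 was 0.15, 0.0729, 0.0708, 0.126 and 0.135 without treated replicate 1, treated replicate 2, treated replicate 3, untreated replicate 1 and untreated replicate 3, and that of EIF2AK2 was 0.126 and 0.0899 without treated replicate 3 and untreated replicate 2.

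The CARE letters were looked for in the promoters of the tested genes, because they are the ATF4 element of textbook amino acid response genes. Promoter windows of 300 bases (250 before and 50 after the start) came from RefSeq (GRCh38.p14), and 10096 of the tested genes had one. The searched letters, TGATGNAA on either strand, were in 1.73% of those promoters, in 3.15% of the 539 belonging to genes called higher and in 1.35% of the 743 belonging to genes called lower. Of the 13 ATF4 targets called higher with a promoter, 3 held them, namely CHAC1, ASNS and SLC3A2. The windows of S100P and CHAC1 are shown because they are the rises with these letters that changed most. S100P lies at chr4:6693628-6693927 on the plus strand and CHAC1 at chr15:40953221-40953520 on the plus strand, with the CARE letters in capitals, read here on the opposite strand.
S100P promoter: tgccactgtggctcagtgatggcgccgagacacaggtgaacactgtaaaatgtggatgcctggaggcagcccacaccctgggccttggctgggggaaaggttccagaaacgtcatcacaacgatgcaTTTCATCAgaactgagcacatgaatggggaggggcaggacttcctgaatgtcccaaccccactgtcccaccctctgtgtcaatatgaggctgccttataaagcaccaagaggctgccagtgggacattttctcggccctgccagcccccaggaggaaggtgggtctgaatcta
CHAC1 promoter: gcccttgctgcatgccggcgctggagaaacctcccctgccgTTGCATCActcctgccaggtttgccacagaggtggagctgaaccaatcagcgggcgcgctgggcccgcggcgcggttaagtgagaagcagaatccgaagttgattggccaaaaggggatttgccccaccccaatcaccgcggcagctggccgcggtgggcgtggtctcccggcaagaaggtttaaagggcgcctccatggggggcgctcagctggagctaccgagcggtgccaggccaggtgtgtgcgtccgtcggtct
S100P, a calcium-binding protein, had 56.9, 58 and 58.9 TPM in treated cells, against 5.9, 0 and 0 TPM in untreated cells, and rose by 4.95 (SE 0.86, adjusted p = 0.00168). Untreated replicate 1 alone among the untreated libraries was above 0. A match of letters is a description and not a binding site.

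Genes of the endoplasmic reticulum rose in part. Of 22 measured chaperones and sensors of the unfolded protein response 4 rose and none fell (median 0.14), and with 1 library left out the count ran from 2 to 4, with 2 without treated replicate 2, untreated replicate 1 or untreated replicate 2. HSPA5, the main chaperone of the compartment, had 461, 467 and 432 TPM in treated cells, against 172, 240.0 and 137 TPM in untreated cells, and rose by 1.34 (SE 0.17, adjusted p = 1.24e-04). HERPUD1, a membrane scaffold of ER-associated degradation, had 52.8, 51.4 and 75.2 TPM in treated cells, against 12.7, 10.3 and 16 TPM in untreated cells, and rose by 2.12 (SE 0.33, adjusted p = 7.38e-04). SEC61G, a subunit of the channel through which proteins enter, had 610.3, 825 and 730.0 TPM in treated cells, against 159, 204 and 273 TPM in untreated cells, and rose by 1.79 (SE 0.29, adjusted p = 9.62e-04). In each of these 3 genes all treated libraries were above all untreated ones.

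Of 19 genes of ER-associated degradation 5 rose and 1 fell. Their higher count ran from 2 to 3, with 2 without treated replicate 1, treated replicate 2, treated replicate 3 or untreated replicate 2 and 3 without untreated replicate 1 or untreated replicate 3, and the lower count from 0 to 1, with 0 without treated replicate 2, treated replicate 3 or untreated replicate 2. EDEM3, which trims mannose from misfolded glycoproteins, rose by 0.85 (SE 0.19, adjusted p = 0.0084). Of 30 genes of the secretory route 5 rose and none fell, among them COPA, the COPI coat subunit, by 0.85 (SE 0.19, adjusted p = 0.00992), and that count ran from 3 to 5, with 3 without treated replicate 2. 27 of the 30 had positive differences (median 0.48), most of them short of the threshold.

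Genes of autophagy were called at about the share over all genes. Of 33 measured genes 3 rose and 1 fell (median 0.13), or 12.1% beside 11.3% over all genes. With 1 library left out the higher count ran from 3 to 6, with 5 without treated replicate 2 and 6 without untreated replicate 3. MAP1LC3B, the LC3 protein of autophagosome membranes, had 86.8, 90.9 and 112 TPM in treated cells, against 19.5, 20.1 and 23.3 TPM in untreated cells, and rose by 2.15 (SE 0.22, adjusted p = 1.85e-05). WIPI1, which binds the forming membrane, had 20.5, 16.3 and 21.5 TPM in treated cells, against 3.29, 1.62 and 0.8 TPM in untreated cells (adjusted p = 1.71e-04). SQSTM1, the p62 cargo receptor, rose by 1.25 (SE 0.16, adjusted p = 1.11e-04). The 1 gene that fell was ATG5, part of the LC3 conjugation enzyme, with 3.9, 4.52 and 4.57 TPM in treated cells, against 14.3, 14.6 and 12.5 TPM in untreated cells, and its adjusted p was 0.0509 without treated replicate 1.

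Of 36 lysosomal genes 6 rose and none fell (median 0.28), the count running from 4 to 8. CTSB, the protease cathepsin B, had 68.8, 89.5 and 71.9 TPM in treated cells, against 25.8, 22.3 and 30.5 TPM in untreated cells, and rose by 1.52 (SE 0.20, adjusted p = 1.66e-04). NPC1, which exports cholesterol from lysosomes, rose by 1.39 (SE 0.31, adjusted p = 0.00941), and PSAP, the precursor of saposins, by 1.3 (SE 0.22, adjusted p = 0.00141).

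Both chains of ferritin, the iron store, rose. FTH1, its heavy chain, had 10499, 11114 and 8364 TPM in treated cells, against 2949.7, 2263 and 2717 TPM in untreated cells, and rose by 1.92 (SE 0.13, adjusted p = 4.21e-07). FTL, its light chain, had 1131, 1263 and 957 TPM in treated cells, against 599, 386 and 715 TPM in untreated cells, and rose by 1.01 (SE 0.18, adjusted p = 0.00225). They were the 2 genes called higher of 13 measured genes of iron handling, of which none fell, or 1 without untreated replicate 3. Both have processed pseudogenes that may share their reads. HMOX1, haem oxygenase, which frees iron from haem, had 6.77, 5.45 and 5.17 TPM in treated cells, against 0.97, 4.63 and 1.69 TPM in untreated cells, a difference of 1.12 (SE 0.51, adjusted p = 0.172) that did not pass. Of 26 targets of the oxidative stress factor NRF2 2 rose and 2 fell, or 15.4% beside 11.3% over all genes. Their lower count, leaving out 1 library, ran from 0 to 2, with 0 without treated replicate 3 and 1 without untreated replicate 1, untreated replicate 2 or untreated replicate 3.

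Of 5 measured genes of the metallothionein and zinc list 3 rose, the zinc-binding metallothioneins MT1X and MT2A and the zinc exporter SLC30A1, and with 1 library left out the count ran from 0 to 2, with 0 without treated replicate 3 and 1 without treated replicate 2, untreated replicate 1 or untreated replicate 2. MT2A had 9423, 9406 and 10737 TPM in treated cells, against 6120.0, 4673 and 7549 TPM in untreated cells, and its adjusted p of 0.0133 became 0.0592 without treated replicate 3. The metallothionein genes are close copies, so reads may be split among them. Of 20 genes that hold back or sense for the growth kinase mTORC1 4 rose and none fell, the higher count running from 2 to 4, with 2 without treated replicate 3 or untreated replicate 1, and 1 fell without treated replicate 2. SESN2, a leucine sensor, had 62.3, 61.9 and 34.9 TPM in treated cells, against 10.3, 8.24 and 5.72 TPM in untreated cells, and rose by 2.56 (SE 0.28, adjusted p = 3.85e-05). RRAGD, one of the Rag GTPases that bring mTORC1 to lysosomes, had 6.07, 5.13 and 6.45 TPM in treated cells, against 0.71, 1.02 and 2.37 TPM in untreated cells (adjusted p = 0.00155).

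The AP-1 and immediate early list had the highest share of rises of all lists with at least 10 measured members. Of 24 measured members 13 rose and none fell (median 0.82), and with 1 library left out the count ran from 8 to 12, with 8 without treated replicate 1. MYC, the growth-promoting transcription factor, had 8.47, 9.88 and 10.2 TPM in treated cells, against 1.61, 0.84 and 2.83 TPM in untreated cells, and rose by 1.99 (SE 0.31, adjusted p = 6.87e-04). MAFF, a small Maf factor, had 41.7, 41.6 and 46.6 TPM in treated cells, against 14.1, 9.66 and 9.77 TPM in untreated cells, and rose by 1.88 (SE 0.22, adjusted p = 5.05e-05). EGR1, a zinc finger factor of the immediate response to ERK, had 15.6, 16.7 and 9.01 TPM in treated cells, against 3.67, 2.72 and 2.89 TPM in untreated cells, and rose by 1.81 (SE 0.32, adjusted p = 0.00197). The groups did not overlap for any of the 3.

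Of 23 genes of ERK output 7 rose and none fell (median 0.37), the count running from 6 to 8. DUSP5, a nuclear phosphatase that inactivates ERK, had 21.4, 32.2 and 29.5 TPM in treated cells, against 4.76, 3.83 and 8.97 TPM in untreated cells, and rose by 2.12 (SE 0.31, adjusted p = 4.26e-04). PLAUR, the urokinase receptor, had 597, 515 and 376 TPM in treated cells, against 153, 40.3 and 166 TPM in untreated cells, and rose by 2.26 (SE 0.52, adjusted p = 0.0106). DUSP6, the cytoplasmic ERK phosphatase, had a difference of 0.58 (SE 0.19, adjusted p = 0.0628) that did not pass, and CCND1, cyclin D1, had 72, 86.3 and 42.8 TPM in treated cells, against 100.2, 68.3 and 81.6 TPM in untreated cells, with an adjusted p of 0.449. BRAF, the mutant kinase of this line, had 5.76, 4.95 and 2.81 TPM in treated cells, against 3.38, 5.04 and 4.96 TPM in untreated cells (adjusted p = 0.998).

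Part of the network around MYC rose as well. Of 13 genes of the MYC and MLX network 4 rose and none fell, and the count was 3 with any 1 library left out, with 1 fall without untreated replicate 2. MXD1, which competes with MYC for its partner MAX and represses its targets, had 34.1, 16.8 and 27.7 TPM in treated cells, against 2.77, 0.45 and 3.87 TPM in untreated cells, and rose by 3.13 (SE 0.45, adjusted p = 4.01e-04). TXNIP, an arrestin that limits glucose uptake and is a target of the MLX branch, had 39.5, 41.3 and 17.2 TPM in treated cells, against 2.37, 2.75 and 8.47 TPM in untreated cells, and rose by 2.68 (SE 0.54, adjusted p = 0.00426). TXNIP also stands on the list of ATF4 targets and is counted in both.

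The mRNAs of the NF-κB pathway itself were called at about the share over all genes. Of 30 components of NF-κB and its kinases 1 rose and 2 fell, or 10.0% beside 11.3% over all genes, with a median of -0.07. The higher count ran from 0 to 1, with 0 without treated replicate 1, treated replicate 3 or untreated replicate 3, and the lower count from 0 to 1, with 0 without treated replicate 1, treated replicate 3 or untreated replicate 1 and 1 without treated replicate 2, untreated replicate 2 or untreated replicate 3, over the fits that leave out 1 library. IKBKB, which encodes IKKβ, had 11.3, 3.44 and 2.05 TPM in treated cells, against 7.42, 5.14 and 16.7 TPM in untreated cells, a difference of -0.82 (SE 0.48, adjusted p = 0.302) that did not pass. RELA, the p65 subunit, had 26.3, 23.3 and 19 TPM in treated cells, against 21.4, 14.5 and 20.4 TPM in untreated cells, and its adjusted p was 0.43. NFKBIA, the inhibitor IκBα and itself an NF-κB target, had 11.4, 11.2 and 12.2 TPM in treated cells, against 23.8, 30.9 and 18.3 TPM in untreated cells. It fell by 0.98 (SE 0.27, adjusted p = 0.0299), and the adjusted p was 0.0722, 0.0777, 0.0693, 0.0668 and 0.107 without treated replicate 1, treated replicate 2, treated replicate 3, untreated replicate 1 and untreated replicate 2. The groups overlapped for IKBKB and RELA and not for NFKBIA.

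Among 27 measured NF-κB target genes 5 rose and 4 fell (median 0.11), and 10 further targets did not pass the filter on low values or were not found. The higher count ran from 3 to 5, with 3 without treated replicate 1, treated replicate 3 or untreated replicate 2, and the lower count from 1 to 4, with 1 without treated replicate 3 and 2 without treated replicate 1, treated replicate 2 or untreated replicate 2. LIF, a cytokine of the interleukin-6 family, had 6.75, 10.3 and 6.83 TPM in treated cells, against 0.79, 0.06 and 1.17 TPM in untreated cells, and rose by 2.46 (SE 0.43, adjusted p = 0.00182). TNFAIP8, an apoptosis regulator induced by TNF, had 2.06, 1.81 and 0.26 TPM in treated cells, against 9.73, 10.3 and 6.58 TPM in untreated cells, and fell by 2.14 (SE 0.34, adjusted p = 8.22e-04). The chemokine CXCL3 had 7.97, 3.51 and 3.33 TPM in treated cells, against 1.69, 0.71 and 0.34 TPM in untreated cells, and its adjusted p of 0.0128 became 0.061 without treated replicate 1.

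GADD45A and PLK2 moved in opposite directions. GADD45A, a stress sensor, had 272, 287 and 398 TPM in treated cells, against 34.8, 98.2 and 31.4 TPM in untreated cells, and rose by 2.7 (SE 0.32, adjusted p = 5.59e-05). PLK2, a centriole kinase, had 31.3, 33.1 and 37.4 TPM in treated cells, against 123, 139 and 87.6 TPM in untreated cells, and fell by 1.73 (SE 0.21, adjusted p = 6.66e-05).

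Of 7 measured genes of the cyclin-dependent kinase inhibitor list 2 rose and 4 fell, with the lower count running from 2 to 4, with 2 without treated replicate 3. CDKN1A, p21, had 41.5, 43.8 and 103 TPM in treated cells, against 15.3, 6.45 and 27.3 TPM in untreated cells, and rose by 1.95 (SE 0.42, adjusted p = 0.00698). CDKN2A, the p16 and ARF locus, had 30.9, 35.1 and 24.3 TPM in treated cells, against 10.9, 1.21 and 5.44 TPM in untreated cells, and rose by 2.48 (SE 0.54, adjusted p = 0.00732). CDKN2C, p18, had 4.14, 3.44 and 3.24 TPM in treated cells, against 14.1, 16.2 and 21.2 TPM in untreated cells, and fell by 1.97 (SE 0.22, adjusted p = 4.97e-05). CDKN3, a phosphatase of cyclin-dependent kinases that peaks in dividing cells, fell by 1.72 (SE 0.22, adjusted p = 1.45e-04).

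Apoptosis genes had 6 rises and 2 falls among 32 measured members (median 0.15), with the higher count running from 4 to 5 and the lower count from 1 to 3, with 1 without treated replicate 3 or untreated replicate 2. HRK, a BH3-only protein that promotes cell death, had 5.95, 3.74 and 4.95 TPM in treated cells, against 0, 0 and 0 TPM in untreated cells (adjusted p = 9.50e-05). BCL2L2, a protein of the same family that protects cells, had 5.34, 4.9 and 5.1 TPM in treated cells, against 0.24, 1.48 and 1.67 TPM in untreated cells, and rose by 1.60 (SE 0.29, adjusted p = 0.0025). Members that promote death and members that oppose it were thus both among the rises.

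The largest falls took in a transcriptional corepressor, a cytokine receptor, a nuclear receptor and small RNAs. TLE4, a Groucho corepressor, had 6.9, 6.81 and 11.3 TPM in treated cells, against 68.3, 93.7 and 71.7 TPM in untreated cells, and fell by 3.10 (SE 0.24, adjusted p = 1.23e-06). IL7R, the interleukin-7 receptor α chain, had 5.56, 4.62 and 8.17 TPM in treated cells, against 57.9, 45 and 63.3 TPM in untreated cells, and fell by 3.00 (SE 0.35, adjusted p = 5.57e-05). NR2F1, an orphan nuclear receptor, had 11.5, 8.99 and 5.56 TPM in treated cells, against 46.4, 125.2 and 45 TPM in untreated cells, and fell by 2.80 (SE 0.48, adjusted p = 0.00148). The highest treated library stood far below the lowest untreated one in each, where the rule for naming them required no overlap.

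The small RNAs were SCARNA22, a guide RNA of Cajal bodies, with 164, 34.2 and 49.6 TPM in treated cells, against 889, 778 and 530.0 TPM in untreated cells (adjusted p = 5.07e-05), and RNY3, a Y RNA, with 0, 47 and 18.2 TPM in treated cells, against 132, 146 and 233 TPM in untreated cells (adjusted p = 0.0108). RNU6-1016P, a copy of the U6 small nuclear RNA, was at 0 in all treated libraries, against 71.6, 36.2 and 137 TPM in untreated cells (adjusted p = 9.08e-04). Over the 75 tested small nuclear RNAs the median difference was -1.06 with 2 falls (2.67%). Over 60 small nucleolar RNAs it was -1.33 with 3 falls (5.0%) and 1 rise (1.67%). Over all genes 6.36% fell and 4.94% rose, so neither class was called lower more often than genes at large. Such RNAs mostly lack the poly(A) tail that the library kit primes on, and their TPM values are divided by very short lengths, so how fully they were captured is unknown.

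Most measured genes of the spindle and of mitotic control fell. Of 29 measured genes of kinesins and the spindle 25 fell and none rose (median -1.62), and of 30 mitotic regulators 21 fell and none rose (median -1.43). With 1 library left out these counts ran from 16 to 25, with 16 without treated replicate 3, and from 16 to 23. Of 35 kinetochore genes 19 fell and none rose, and of 21 cohesin and condensin genes 11 fell and none rose. Their counts ran from 10 to 18, with 10 without treated replicate 3, and from 9 to 11. In bulk RNA fewer cells in mitosis and less RNA of these genes per cell cannot be told apart.

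ANLN, the actin scaffold of the cleavage furrow, had 33.9, 16.6 and 10.6 TPM in treated cells, against 99.6, 153 and 84.8 TPM in untreated cells, and fell by 2.51 (SE 0.31, adjusted p = 1.02e-04). KIF20A, a motor of the central spindle, had 3.37, 5.45 and 0.88 TPM in treated cells, against 20.9, 25.8 and 14.3 TPM in untreated cells, and fell by 2.47 (SE 0.46, adjusted p = 0.00263). CCNB1, cyclin B1, had 63, 37.9 and 51.6 TPM in treated cells, against 242, 209.7 and 213 TPM in untreated cells, and fell by 2.13 (SE 0.18, adjusted p = 3.79e-06). All 3 are made mainly in G2 and mitosis, and none of their treated libraries reached an untreated one. NDC80, of the outer kinetochore, fell by 2.05 (SE 0.35, adjusted p = 0.00137), NCAPD2, of condensin, by 1.67 (SE 0.25, adjusted p = 5.35e-04), and MKI67, the proliferation antigen Ki-67, by 1.66 (SE 0.31, adjusted p = 0.00304).

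Regulators of entry into S phase fell in part. Of 22 genes of E2F, its partners and the G1 and S cyclins 7 fell and 1 rose (median -0.59), the lower count running from 5 to 6. E2F1, an activator of S phase genes, had 2.71, 1.6 and 1.65 TPM in treated cells, against 11.9, 6.95 and 8.84 TPM in untreated cells, and fell by 1.77 (SE 0.34, adjusted p = 0.0036). MYBL2, which joins MuvB on mitotic promoters, had 7.52, 11.1 and 3.91 TPM in treated cells, against 45.8, 24.9 and 31.2 TPM in untreated cells, and fell by 2.09 (SE 0.35, adjusted p = 0.00123). The 1 rise in the list was E2F7, a repressor of E2F targets, with 33.9, 43.4 and 44.9 TPM in treated cells, against 17.03, 11.9 and 15.9 TPM in untreated cells, by 1.39 (SE 0.28, adjusted p = 0.00498).

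Of 48 genes of replication origins and forks 21 fell and none rose (median -0.99), and with 1 library left out the count ran from 12 to 18, with 12 without treated replicate 3. GMNN, geminin, which keeps origins from firing again, had 30.7, 34.2 and 20.9 TPM in treated cells, against 103, 249.5 and 96.6 TPM in untreated cells, and fell by 2.23 (SE 0.27, adjusted p = 8.84e-05). MCM10, which helps open origins, had 15.9, 6.58 and 9.11 TPM in treated cells, against 33.6, 78.3 and 36.5 TPM in untreated cells, and fell by 2.10 (SE 0.44, adjusted p = 0.00557). Untreated replicate 2 was the highest library for both. Of 16 genes that make the building blocks of DNA 7 fell and none rose, and 6 or 7 fell with 1 library left out.

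Among them DUT, which removes dUTP, had 173, 194 and 146 TPM in treated cells, against 442, 599.8 and 525 TPM in untreated cells, and fell by 1.60 (SE 0.16, adjusted p = 1.14e-05). RRM2, a subunit of ribonucleotide reductase, had 24.1, 25.4 and 8.63 TPM in treated cells, against 75.8, 82.1 and 70.7 TPM in untreated cells, and fell by 2.05 (SE 0.36, adjusted p = 0.0018). Treated and untreated libraries of both did not overlap. Of 15 mismatch and base repair genes 5 fell and none rose, with MSH6, a mismatch sensor, at 42.4, 23.9 and 48.1 TPM in treated cells, against 144, 235 and 133 TPM in untreated cells, falling by 2.15 (SE 0.25, adjusted p = 5.57e-05). PARP1, which marks DNA breaks, fell by 1.36 (SE 0.18, adjusted p = 1.86e-04). Of 36 genes of homologous recombination and the Fanconi pathway 8 fell and none rose, the count running from 4 to 7, with 4 without treated replicate 3 and 5 without untreated replicate 2.

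Part of the histone and chromatin genes fell. Of 30 measured histone genes 11 fell and 1 rose (median -0.99), with the lower count running from 10 to 11, and the higher count from 0 to 1, with 0 without treated replicate 1, treated replicate 2, treated replicate 3, untreated replicate 1 or untreated replicate 3. Of the list 23 of 53 genes did not pass the filter or were not found. H4C3, a histone H4 gene, had 474, 401 and 281 TPM in treated cells, against 2698, 1938 and 2529 TPM in untreated cells, and fell by 2.65 (SE 0.24, adjusted p = 5.58e-06). H1-5, a linker histone, had 2.89, 3.57 and 0.83 TPM in treated cells, against 28.3, 46.3 and 33.6 TPM in untreated cells, and fell by 3.51 (SE 0.46, adjusted p = 1.61e-04). Replication-dependent histone mRNAs mostly lack a poly(A) tail, and the histone H4 genes are similar to one another, so these levels are uncertain although the groups did not overlap.

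Of 27 genes of chromatin assembly and the nuclear lamina 17 fell and none rose (median -1.11), and with 1 library left out the count ran from 15 to 16. TMPO, a lamina-associated protein, had 31.6, 24.1 and 13.5 TPM in treated cells, against 107, 121 and 90.7 TPM in untreated cells, and fell by 2.22 (SE 0.26, adjusted p = 5.57e-05). LMNB1, lamin B1, had 21.3, 21.4 and 10.4 TPM in treated cells, against 71.3, 84.2 and 60.2 TPM in untreated cells, and fell by 2.02 (SE 0.26, adjusted p = 1.3e-04). NASP, a histone chaperone, fell by 1.78 (SE 0.27, adjusted p = 4.99e-04), and HELLS, a chromatin remodeller, by 2.08 (SE 0.40, adjusted p = 0.00337).

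The CHR letters, TTTGAA on either strand, were frequent in the promoters of these falling genes. They were in 79.2% of 24 promoters of spindle genes called lower, in 58.8% of 17 of mitotic regulators and in 58.8% of 17 of kinetochore genes, beside 17.6% of all genes called lower, 6.49% of genes called higher and 9.61% of tested genes. The replication genes held them in 2 of 17, and held the letters TTTNNCGC, which resemble an E2F site, in 52.9%, beside 10.8% of tested genes. The windows of H1-5 and CDK1 are shown as the falls with CHR letters that changed most. H1-5 lies at chr6:27867539-27867838 on the minus strand and CDK1 at chr10:60778081-60778380 on the plus strand, with the CHR and CCAAT letters of either strand in capitals.
H1-5 promoter: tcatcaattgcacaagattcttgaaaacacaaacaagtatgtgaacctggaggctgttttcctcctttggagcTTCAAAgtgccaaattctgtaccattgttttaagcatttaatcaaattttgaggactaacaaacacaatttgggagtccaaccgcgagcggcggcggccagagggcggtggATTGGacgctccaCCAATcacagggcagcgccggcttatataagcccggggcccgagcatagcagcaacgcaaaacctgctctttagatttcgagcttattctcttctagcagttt
CDK1 promoter: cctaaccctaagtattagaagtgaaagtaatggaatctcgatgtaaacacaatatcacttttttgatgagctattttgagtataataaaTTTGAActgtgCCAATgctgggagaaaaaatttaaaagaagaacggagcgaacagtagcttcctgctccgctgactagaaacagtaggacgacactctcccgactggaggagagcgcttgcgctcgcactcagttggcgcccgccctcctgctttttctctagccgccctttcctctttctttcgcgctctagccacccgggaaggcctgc
CDK1, the kinase that starts mitosis, had 34.2, 31.5 and 15.1 TPM in treated cells, against 167, 169.6 and 189.7 TPM in untreated cells, and fell by 2.74 (SE 0.30, adjusted p = 3.06e-05). The letters CCAAT were in 37.3% of promoters of tested genes. These matches describe the windows and were not tested as sites.

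**Figure D3:**
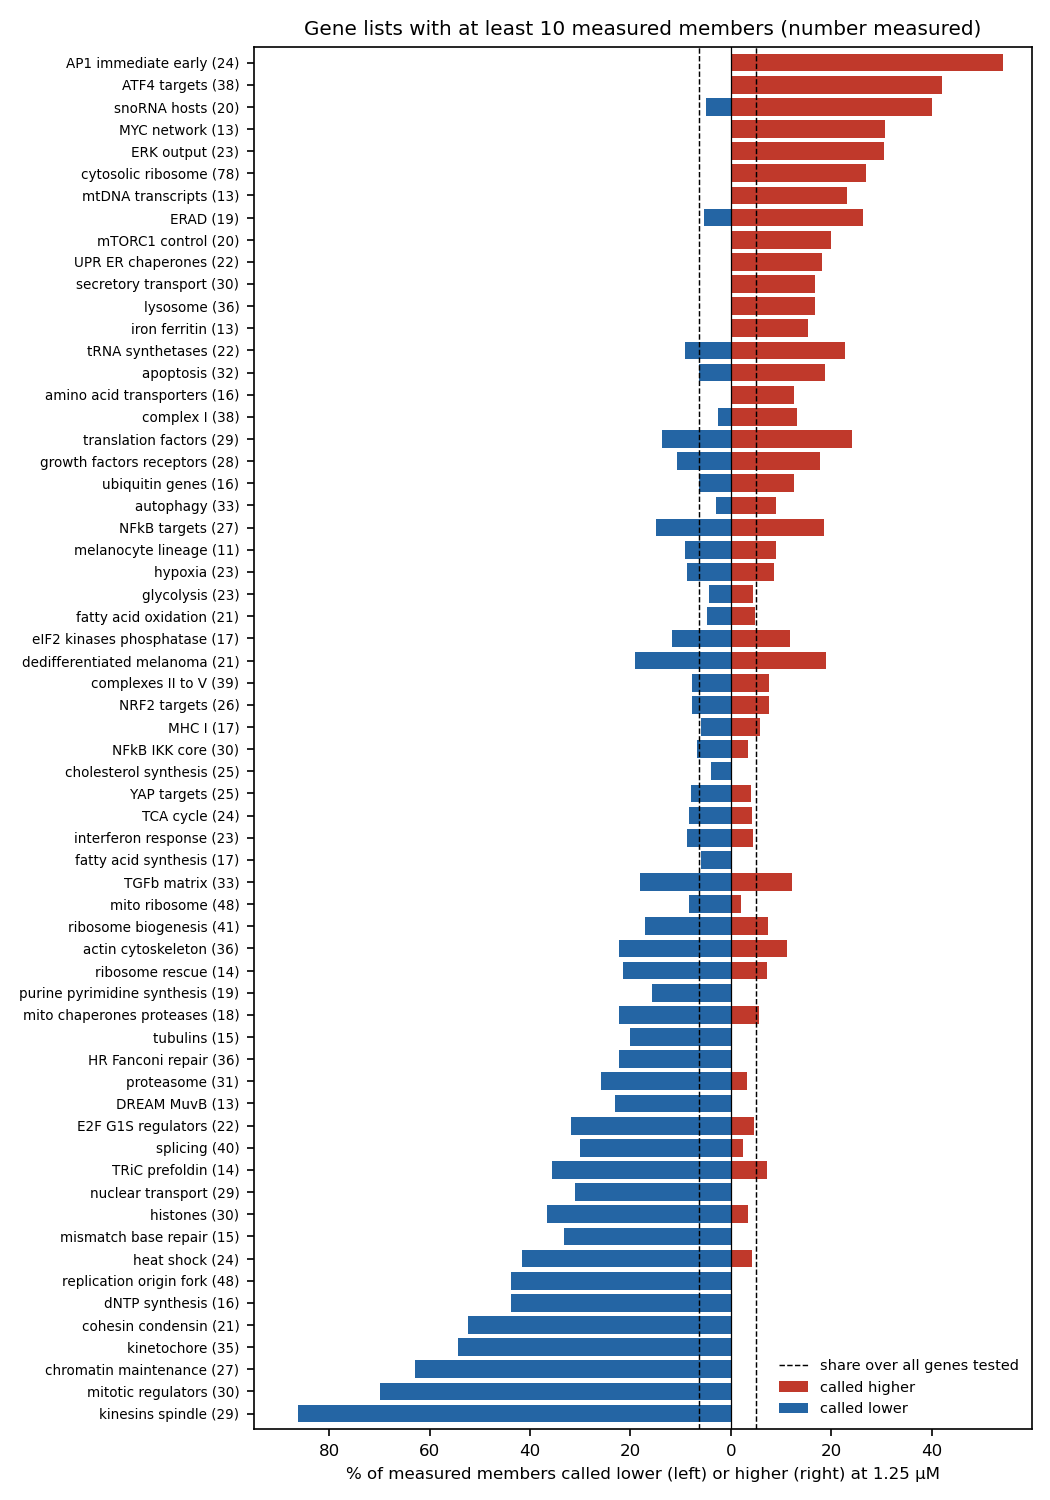
Share of measured members called higher (red, to the right) and lower (blue, to the left) at 1.25 µM for gene lists with at least 10 measured members, whose number stands in parentheses. Not every such list is shown. Dashed lines mark 4.94% higher and 6.36% lower over all genes tested. The spindle, mitotic, chromatin and kinetochore lists reach furthest to the left and the AP-1, ATF4 target and snoRNA host lists furthest to the right.

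Lists of cytosolic chaperones, of the proteasome and of nuclear transport were called mostly lower. Of 24 heat shock genes 10 fell and 1 rose (median -0.64), the lower count running from 8 to 10, and the higher count from 0 to 1, with 0 without treated replicate 1, treated replicate 2 or untreated replicate 3. Of 14 genes of the chaperonin TRiC and of prefoldin 5 fell and 1 rose, the lower count running from 3 to 5, with 3 without treated replicate 3 or untreated replicate 2. CCT5, a chaperonin subunit, had 187, 190.4 and 158 TPM in treated cells, against 346, 473 and 297 TPM in untreated cells, and fell by 1.03 (SE 0.17, adjusted p = 0.00119). PFDN2, a prefoldin subunit, went the other way, with 1124, 1116 and 1241 TPM in treated cells, against 448, 279 and 586 TPM in untreated cells, and rose by 1.47 (SE 0.24, adjusted p = 0.00128). HSP90AA1, the inducible HSP90, had 839, 812 and 682 TPM in treated cells, against 2334, 5469 and 2029.7 TPM in untreated cells, and fell by 1.93 (SE 0.28, adjusted p = 4.20e-04). Its untreated replicate 2 was more than 2 times the other two, which stayed above every treated library.

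Of 31 proteasome subunits 8 fell and 1 rose (median -0.33), with the lower count running from 7 to 8, and the higher count from 0 to 1, with 0 without treated replicate 1, treated replicate 2, treated replicate 3 or untreated replicate 1. PSMC6, one of the ATPases of its base, had 65.1, 54.2 and 43.4 TPM in treated cells, against 123, 158 and 98.5 TPM in untreated cells, and fell by 1.20 (SE 0.20, adjusted p = 0.00146). Of 29 nuclear transport genes 9 fell and none rose (median -0.50), and with 1 library left out the count ran from 6 to 10. KPNA2, an importin α, had 26.9, 24.8 and 31 TPM in treated cells, against 108, 114 and 138 TPM in untreated cells, and fell by 2.08 (SE 0.16, adjusted p = 1.17e-06). XPO1, the main nuclear export receptor, had 94.7, 78.5 and 55.3 TPM in treated cells, against 186, 374 and 181 TPM in untreated cells, and fell by 1.63 (SE 0.28, adjusted p = 0.00141).

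Of 40 splicing genes 12 fell and 1 rose, and the lower count ran from 3 to 10, with 3 without treated replicate 2, treated replicate 3 or untreated replicate 2. It was 4 without the mean-variance trend. The 1 rise was TRA2B, a splicing activator, with 327, 251 and 335 TPM in treated cells, against 117, 187 and 112 TPM in untreated cells, by 1.16 (SE 0.23, adjusted p = 0.0036). SRSF3, an SR protein, had 140.1, 103 and 73.2 TPM in treated cells, against 199.6, 211 and 204 TPM in untreated cells, and its adjusted p of 0.0219 became 0.0545, 0.109 and 0.0526 without treated replicate 2, treated replicate 3 and untreated replicate 2.

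Ribosomal protein mRNAs took up a larger share of TPM after treatment. Their share of all TPM was 26.5, 27.7 and 29.4% in treated libraries, against 21.4, 22.9 and 23.1% in untreated libraries. The means were 27.9 ± 1.46% and 22.5 ± 0.929% (SD, n = 3 each), and the two-sided exact permutation p was 0.1, the smallest that 3 against 3 libraries allow. Of 78 measured genes 21 rose and none fell, with a median of 0.33, 70 of 78 differences being positive. The count ran from 7 to 31, with 7 without treated replicate 3 and 10 without treated replicate 2. It was 5 with a median of 0.13 after quantile normalization, 4 without the mean-variance trend, 13 after rescaling without the 20 most abundant genes, 10 with no filter on low values and 32 with a filter at 5 TPM. TPM are shares of a fixed total, so a rise of these abundant mRNAs lowers the rest.

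RPL23A, a large subunit protein, had 2696, 2807 and 2204 TPM in treated cells, against 1395, 1590.2 and 1546 TPM in untreated cells, and rose by 0.76 (SE 0.14, adjusted p = 0.00205). RPS28, a small subunit protein, had 9058, 8825 and 8989 TPM in treated cells, against 6925, 4407 and 6924 TPM in untreated cells, and rose by 0.59 (SE 0.13, adjusted p = 0.00954). EIF1, the factor that guards the choice of start codon, had 1036, 1082 and 1401 TPM in treated cells, against 512, 359.5 and 627 TPM in untreated cells, and rose by 1.25 (SE 0.18, adjusted p = 4.20e-04). These genes have processed pseudogenes with near-identical sequence, so their reads may be shared. Of 41 genes of ribosome assembly 7 fell and 3 rose, with the lower count running from 1 to 12, with 1 without treated replicate 3 or untreated replicate 2, 2 without treated replicate 2, 4 without untreated replicate 1 and 12 without untreated replicate 3, and the higher count from 1 to 3, with 1 without treated replicate 2 or treated replicate 3. NCL, nucleolin, had 311, 275 and 242 TPM in treated cells, against 594, 1183 and 498 TPM in untreated cells, and fell by 1.36 (SE 0.23, adjusted p = 0.00152).

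**Figure D4:**
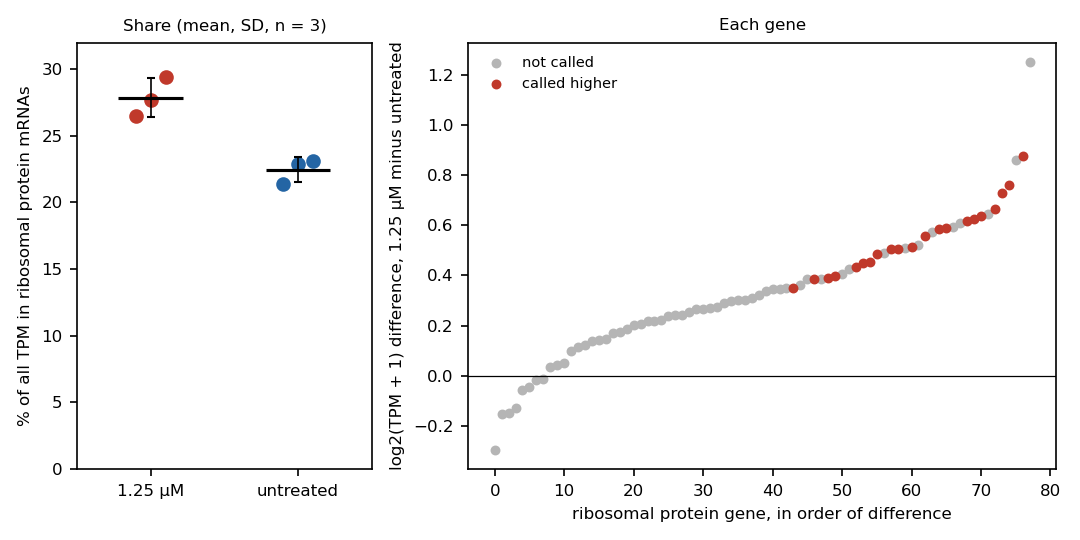
Left, the share of all TPM in ribosomal protein mRNAs in each library, 1.25 µM (red) and untreated (blue), with mean and SD (n = 3 per group). Right, the difference in mean log2(TPM + 1) of each of the 78 ribosomal protein genes in rising order, with the 21 called higher in red. The treated shares lie above all untreated ones and 70 of the differences are positive.

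Genes of translation were split. Of 29 initiation and elongation factors 7 rose and 4 fell, with the higher count running from 2 to 7, with 2 without treated replicate 3, 3 without treated replicate 2 and 4 without untreated replicate 2, and the lower count from 1 to 4, with 1 without treated replicate 3 and 2 without treated replicate 2 or untreated replicate 2. The rises were EIF1, EEF1A1, EIF3C, EIF3G, EIF3H, EEF1B2 and EEF2, and the falls were the cap-binding protein EIF4E with EIF3A, EIF4A1 and EIF4B, with differences between 0.39 and 1.25 for the rises and between -1.23 and -0.52 for the falls. Of 22 cytosolic tRNA synthetases 5 rose and 2 fell, with the higher count running from 1 to 5, with 1 without treated replicate 1 and 2 without treated replicate 2 or untreated replicate 1, and the lower count from 1 to 3, with 1 without treated replicate 2, treated replicate 3, untreated replicate 1 or untreated replicate 3. The rises, AARS1, GARS1, IARS1, YARS1 and SARS1, charge tRNAs with alanine, glycine, isoleucine, tyrosine and serine, and their differences lay between 0.60 and 0.95.

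Part of the host genes of small nucleolar RNAs, whose introns carry the guides and whose spliced RNAs are mostly non-coding, rose. Of 20 measured hosts 8 rose and 1 fell (median 0.55), and the higher count ran from 6 to 8, and the lower count from 0 to 1, with 0 without treated replicate 3 or untreated replicate 1. SNHG32 had 507, 565 and 909 TPM in treated cells, against 94, 99.9 and 137 TPM in untreated cells, and rose by 2.54 (SE 0.24, adjusted p = 9.02e-06). GAS5 had 1005, 984 and 1354 TPM in treated cells, against 252, 278 and 279 TPM in untreated cells, and rose by 2.03 (SE 0.18, adjusted p = 5.58e-06). ZFAS1 had 1556, 1592 and 2154 TPM in treated cells, against 399, 341 and 567 TPM in untreated cells, and rose by 2.04 (SE 0.22, adjusted p = 3.57e-05). No treated library of these hosts overlapped an untreated one.

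For lists of mitochondrial genes the share of members called is given beside 11.3% over all genes. Of 38 nuclear genes of complex I 5 rose and 1 fell (15.8%), and the higher count ran from 1 to 8, with 1 without treated replicate 2, 2 without treated replicate 3, 3 without treated replicate 1 or untreated replicate 2 and 8 without untreated replicate 3, and the lower count from 1 to 3, with 3 without untreated replicate 1. Of 39 genes of the other complexes of the respiratory chain 3 rose and 3 fell (15.4%), running from 1 to 5, with 1 without untreated replicate 2 and 5 without untreated replicate 3, and from 3 to 4. Of 18 mitochondrial chaperones and proteases 1 rose and 4 fell (27.8%), among them the chaperonins HSPD1 and HSPE1, the higher count running from 1 to 3, with 3 without untreated replicate 2, and the lower count from 2 to 4, with 2 without treated replicate 2 or treated replicate 3. Of 13 transcripts of mitochondrial DNA 3 rose and none fell (23.1%), the higher count running from 2 to 6, with 6 without untreated replicate 1, and 1 fell without untreated replicate 3. MT-CO1, a subunit of cytochrome oxidase, had 2259, 2276 and 1579 TPM in treated cells, against 945, 612 and 384 TPM in untreated cells, and rose by 1.73 (SE 0.29, adjusted p = 0.00121). Treated replicate 3 and untreated replicate 3 were the lowest of their groups.

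Other lists of metabolism and mitochondria were called at shares near or below the 11.3% over all genes. These were 8.7% for glycolysis, 10.4% for the mitochondrial ribosome and 12.5% for the citric acid cycle. Cholesterol synthesis had 4.0% and fatty acid synthesis 5.88%. Of 23 glycolysis genes 1 rose and 1 fell, the lower count running from 0 to 3, with 0 without treated replicate 3 or untreated replicate 3, 2 without treated replicate 1 and 3 without untreated replicate 2. Of 48 genes of the mitochondrial ribosome 1 rose and 4 fell, the higher count running from 0 to 2, with 0 without treated replicate 2, treated replicate 3, untreated replicate 1 or untreated replicate 2 and 2 without untreated replicate 3, and the lower count from 2 to 4, with 2 without treated replicate 2 or treated replicate 3. Of 24 genes of the citric acid cycle 1 rose and 2 fell, the higher count running from 0 to 2, with 0 without treated replicate 3 and 2 without untreated replicate 3, and the lower count from 0 to 1, with 0 without treated replicate 2 and 1 without treated replicate 1, treated replicate 3, untreated replicate 1, untreated replicate 2 or untreated replicate 3. Of 25 genes of cholesterol synthesis none rose and 1 fell, with none lower without treated replicate 3 and 1 higher without untreated replicate 3. The glucose transporter SLC2A3 was the glycolysis gene that rose, with 88.5, 54.6 and 61.3 TPM in treated cells, against 10.9, 25.5 and 19.4 TPM in untreated cells (adjusted p = 0.00197). ACSL3, which activates fatty acids, was the 1 fall among 17 genes of fatty acid synthesis, with 15.9, 14.1 and 17.7 TPM in treated cells, against 45.3, 33.3 and 48.6 TPM in untreated cells (adjusted p = 8.97e-04). Without untreated replicate 2 that list also had 1 rise.

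Matrix and cytoskeleton genes moved in both directions. Of 33 genes of TGF-β signalling and matrix 4 rose and 6 fell (median -0.46), the higher count running from 1 to 4, with 1 without treated replicate 1 or treated replicate 2 and 2 without untreated replicate 1 and the lower count from 3 to 6, with 3 without treated replicate 3. THBS1, thrombospondin 1, had 12.5, 11 and 7.17 TPM in treated cells, against 80.8, 77.4 and 62.5 TPM in untreated cells, and fell by 2.76 (SE 0.25, adjusted p = 5.58e-06). CAV1, the coat protein of caveolae, had 73.6, 59.9 and 62.9 TPM in treated cells, against 242, 313 and 282 TPM in untreated cells, and fell by 2.07 (SE 0.13, adjusted p = 1.66e-07). TIMP3, a metalloproteinase inhibitor, had 25.7, 22.6 and 15.2 TPM in treated cells, against 57.5, 43.2 and 75.1 TPM in untreated cells, and fell by 1.42 (SE 0.21, adjusted p = 5.66e-04). The groups did not overlap for any of them.

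Of 36 actin genes 4 rose and 8 fell, the lower count running from 5 to 11, with 5 without treated replicate 3. FLNA, filamin A, which cross-links actin, had 705, 771 and 509 TPM in treated cells, against 368, 138 and 314 TPM in untreated cells, and rose by 1.37 (SE 0.27, adjusted p = 0.00364). CALD1, caldesmon, which binds actin and myosin, fell by 1.25 (SE 0.23, adjusted p = 0.00215). NGFR, the low-affinity neurotrophin receptor and a marker of neural crest-like melanoma cells, had 22.6, 20.4 and 23.6 TPM in treated cells, against 7.75, 6.62 and 10.3 TPM in untreated cells, and rose by 1.35 (SE 0.20, adjusted p = 4.27e-04). MITF, the melanocyte master factor, had 6.99, 4.14 and 14.2 TPM in treated cells, against 16.6, 13.5 and 16.8 TPM in untreated cells, with an adjusted p of 0.0498 that became 0.119, 0.216, 0.114, 0.0658 and 0.105 without treated replicate 1, treated replicate 2, untreated replicate 1, untreated replicate 2 and untreated replicate 3.

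Of 28 growth factors and receptors 5 rose and 3 fell, with the higher count running from 4 to 5, and the lower count from 0 to 2, with 0 without treated replicate 2 and 1 without treated replicate 3. IGFBP3, which binds insulin-like growth factors outside the cell, had 20.9, 26.2 and 7.81 TPM in treated cells, against 1.63, 0.74 and 3.34 TPM in untreated cells (adjusted p = 7.47e-04). FGF2, basic fibroblast growth factor, had 8.36, 10.2 and 7.27 TPM in treated cells, against 4.04, 1.74 and 2.56 TPM in untreated cells, and rose by 1.38 (SE 0.29, adjusted p = 0.00532). The other rises were NGFR, EGFR and HBEGF, and the falls were NRG1, ERBB3 and TGFA, with differences between -1.11 and -0.88.

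The step to this dose was tested directly against 0.63 µM, the dose below it. Of the 14936 genes 226 differed (1.51%), with 70 higher (0.469%) and 156 lower (1.04%) at 1.25 µM. Without treated replicate 3 the counts were 37 and 45, without 0.63 µM replicate 1 they were 33 and 56, and without 0.63 µM replicate 2 they were 42 and 65. Quantile normalization gave 112 higher and 154 lower, so that 42.1% of its calls were higher, against 31.0% with the TPM as deposited. A fit to these 6 libraries alone called none, with 2299 genes at an unadjusted p under 0.05 in the fit to all libraries. Of 29 spindle genes 11 were lower than at 0.63 µM and none higher. Among them, the adjusted p of ANLN was 0.0846, 0.138, 0.11 and 0.114 without treated replicate 2, treated replicate 3, 0.63 µM replicate 1 and 0.63 µM replicate 2. That of KIF23 was 0.0662, 0.111, 0.0995 and 0.051 without treated replicate 1, treated replicate 3, 0.63 µM replicate 2 and 0.63 µM replicate 3. Of the ATF4 targets 2 were higher, TXNIP among them, and 3 lower.

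Several falls came mainly between those doses. THBS1 averaged 73.6 ± 9.71 TPM in untreated cells, 87.7 ± 6.12 at 0.32 µM, 65.9 ± 20.3 at 0.63 µM and 10.2 ± 2.73 at 1.25 µM (SD, n = 3 each), and fell by 2.56 (SE 0.25, adjusted p = 1.09e-04) over the step. TIMP3 averaged 58.6 ± 16 TPM in untreated cells, 60.1 ± 5.54 at 0.32 µM, 67.2 ± 3.93 at 0.63 µM and 21.2 ± 5.42 at 1.25 µM, and fell by 1.65 (SE 0.21, adjusted p = 0.00112). CAV1 averaged 279 ± 36 TPM in untreated cells, 232 ± 21.9 at 0.32 µM, 200.1 ± 10.7 at 0.63 µM and 65.5 ± 7.21 at 1.25 µM, and fell by 1.60 (SE 0.13, adjusted p = 2.22e-05). KPNA2 fell by 1.61 (SE 0.16, adjusted p = 1.09e-04). For THBS1 and TIMP3 the comparison of 0.63 µM with untreated cells had, beside 2.18% of all genes called, adjusted p values of 0.737 and 0.631. These step calls passed with any 1 of the 6 libraries left out, as did 22 of the 50 genes named by rule and called in the step.

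Among the rises, TXNIP and HRK did not pass at 0.63 µM against untreated cells, with adjusted p values of 0.764 and 0.527. TXNIP averaged 4.53 ± 3.42 TPM in untreated cells, 0.873 ± 0.232 at 0.32 µM, 2.94 ± 1.45 at 0.63 µM and 32.7 ± 13.4 at 1.25 µM, and rose by 3.06 (SE 0.54, adjusted p = 0.00875) over the step. HRK averaged 0 ± 0 TPM in untreated cells, 0.0333 ± 0.0577 at 0.32 µM, 0.393 ± 0.534 at 0.63 µM and 4.88 ± 1.11 at 1.25 µM (adjusted p = 0.00266 over the step). MAP1LC3B averaged 21 ± 2.08 TPM in untreated cells, 20.1 ± 5.5 at 0.32 µM, 35.6 ± 9.49 at 0.63 µM and 96.4 ± 13.3 at 1.25 µM, and rose by 1.44 (SE 0.22, adjusted p = 0.00371). These 3 calls also passed with any 1 library left out. DDIT4, an mTORC1 inhibitor among the ATF4 targets, was lower than at 0.63 µM, with 34, 47.5 and 34 TPM at 1.25 µM, against 61, 78.8 and 80.5 TPM at 0.63 µM, and its adjusted p of 0.042 became 0.109, 0.156, 0.0623, 0.131 and 0.112 without treated replicate 1, treated replicate 3, 0.63 µM replicate 1, 0.63 µM replicate 2 and 0.63 µM replicate 3.

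**Figure D5:**
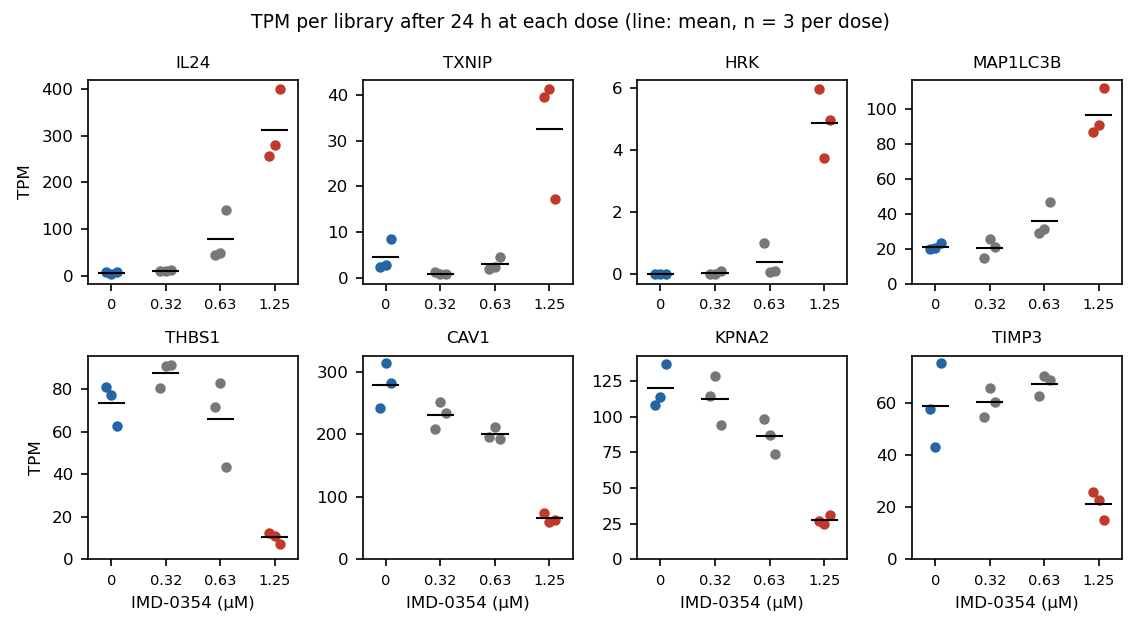
TPM in each library after 24 h at 0, 0.32, 0.63 and 1.25 µM IMD-0354 for 8 genes, with the mean as a line (n = 3 per dose), untreated in blue and 1.25 µM in red. TXNIP and HRK are low up to 0.63 µM and THBS1, KPNA2 and TIMP3 drop at 1.25 µM, where no library overlaps those at 0.63 µM.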

How the data were processed

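QuantSeq 3' FWD libraries of A375 cells were sequenced by the authors, and the deposited table holds TPM for 18 libraries, with read depth unknown. Per the submitters' processing notes the tools were cutadapt 1.18, STAR 2.7, RSEM 1.3.1 and DESeq2, and the genome build is not given in the sources used here. RSEM divides by transcript length, which 3' reads do not need, so levels of different genes are not on one scale. Libraries were grouped by their labels.

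Values were tested as log2(TPM + 1) with limma 3.58.1 (R 4.3.3, statmod 1.5.0). Means of all 6 groups were fitted, variances were moderated with a trend (12 residual and 4.16 prior degrees of freedom), and p-values were two-sided and adjusted by Benjamini and Hochberg over 14936 genes, with 0.05 as the threshold. In data simulated for 1.25 µM against untreated cells, with 13932 genes of which 200 changed, the fit recovered 42% of changes of size 1 and 87% of size 2, with 12 false among 141 calls. The changed genes were drawn only from genes well above the filter on low values, so recovery of low genes was not tested. Each simulated gene had the same spread in every group, so unequal spread between groups was not tested either. Shares of TPM were compared by an exact permutation test.

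The members, the gene lists and the rules were chosen with earlier results of these data known. Genes named are the 15 largest rises and 15 largest falls with a mean of at least 5 TPM in either group and no overlap, the 10 largest in TPM each way, up to 4 called members a list and a preset set, and other members given beside a list's count were picked after their values were seen. Alternatives were pseudocounts, filters, scalings, variance priors, a replicate block, library weights and libraries left out, and 1 scaling, without 4 abundant chromosome 21 transcripts, was added after seeing the data. Promoters came from RefSeq. Tables and figures used Python 3.11.15, pandas 2.3.3, numpy 2.4.6 and matplotlib 3.10.9. Results for some single genes are not reported here.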

Additional observations from a re-analysis of the deposited data

How the results depend on the processing

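Against untreated cells, the count of 1688 calls moved by over 1.5 times in 3 settings. It was 171 (88 higher, 83 lower) when the fit held no other groups, 493 (242 higher, 251 lower) without untreated replicates 2 and 3, and 960 (451 higher, 509 lower) without treated replicate 3. With 1 library left out it ran from 960 to 1676, the rises from 451 to 784 and the falls from 509 to 892, and the rises were 480.0 without treated replicate 2. The smaller fits have fewer residual degrees of freedom or fewer libraries. The median SD of a gene in log2(TPM + 1) was 0.409 in untreated libraries at 24 h and 0.336 at 1.25 µM. In the other groups it lay between 0.281 and 0.337. The fit to all libraries pools these spreads, and whether that changed the count was not tested. Against 0.63 µM, the count of 226 became 0 with only the compared groups (0 higher, 0 lower) and 350.0 (114 higher, 236 lower) with library weights. Quantile normalization gave 112 higher and omitting the variance trend 92 lower, and the causes were not tested. With 1 library left out this count ran from 82 to 190.0, its rises from 33 to 60 and its falls from 45 to 136. Rescaling without the abundant chromosome 21 transcripts gave 634 higher and 1120 lower against untreated cells. Of those calls 36.1% were higher, against 43.7% with the TPM as deposited, so the balance of rises and falls depends on the scaling. With the replicate number as a block there were 1767 calls against untreated cells and 287 against 0.63 µM. Deviations of same-numbered treated and untreated libraries correlated at -0.002, 0.014 and 0.08, and those of differently numbered ones at -0.063 to 0.05. Whether the numbers pair the libraries cannot be told from these values. TPM keep no depth, so no limit for low genes can be given.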

Other observations

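Some gene families that share a name stem were called in 1 direction, as seen after the values were known and not tested as sets. Of 13 tested Krüppel-like factors (KLF), transcription factors of growth and differentiation, 5 rose and none fell, with a median difference of 0.77. Of 19 dual-specificity phosphatases (DUSP) 5 rose and none fell, with a median of 0.55. Of 33 DEAD-box RNA helicases (DDX) 10 fell and none rose, with a median of -0.29, and of 32 HNRNP genes, which package nascent RNA, 8 fell and none rose, with a median of -0.52. Of 432 zinc finger genes named ZNF 18 rose and 3 fell, and of 200 long intergenic RNAs named LINC 13 rose and 2 fell, beside 4.94% rises and 6.36% falls over all genes.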
